A study of Mus musculus with 8 samples.

Results

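Immediate early genes are genes that a cell transcribes soon after a stimulus, before any new protein has to be made, and 10 of them were followed here in the olfactory mucosa of mice with and without a pair of enhancers of the trace amine-associated receptor genes. They were taken by symbol from the deposited table of 54982 rows, which held all 10: Fos, Fosb, Egr1, Junb, Nr4a1, Atf3, Arc, Npas4, Ier2 and Dusp1. Total RNA of the olfactory mucosa, the tissue lining the nasal cavity, was sequenced after removal of ribosomal RNA. There were 4 control libraries, titled WT, and 4 libraries with the deletion of the T elements TE1 and TE2. Both groups were labelled male, 129S6;C57BL/6J and postnatal day 30. The labels do not say whether each library came from a separate animal, so p-values set group differences against the spread between these libraries. That spread may be technical in part or, among controls, in whole. Sex-linked reads given below set deletion replicate 3 apart from the other deletion libraries.

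In most cells these genes are driven by factors that are already present, such as serum response factor and CREB, which are switched on through kinases of the MAPK pathway and through calcium and cAMP. Several encode transcription factors themselves: Fos, Fosb and Junb are subunits of AP-1, a dimer of leucine zipper proteins, and Atf3 is a leucine zipper protein related to CREB. Egr1 is a zinc finger factor and Nr4a1 an orphan nuclear receptor. Arc acts at synapses, Npas4 is a neuronal factor known for its response to calcium entry, Ier2 is a small nuclear protein, and Dusp1 is a phosphatase that switches MAP kinases off again. In olfactory sensory neurons, odorants raise cAMP and calcium, and immediate early genes have been used as marks of recent activity.

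Start-site sequences of Arc and Ier2 were missing from the source used here. Egr1 was left out before the search, so its matches are not known. Start-site sequences from RefSeq on GRCm38.p6 were searched for the other 7 of the 10 genes. They are shown because all 7 windows, from 250 bases before to 50 after the start, held TGACG, the core of the cAMP response element to which CREB and ATF proteins bind. For Nr4a1, Atf3, Npas4 and Dusp1 the window lies inside the gene span given below, not at its outer end. Sequence at the outer end of those spans was not searched. Capitals mark TGACG or its complement CGTCA. The 4 printed in full are Fos (chr12:85473640-85473939, plus strand), the most variable member below; Nr4a1 (chr15:101266596-101266895, plus strand), with the most matches; Npas4 (chr19:4989922-4990221, minus strand), the member lower in the deletion; and Dusp1 (chr17:26508423-26508722, minus strand), with the full palindrome TGACGTCA.
Fos: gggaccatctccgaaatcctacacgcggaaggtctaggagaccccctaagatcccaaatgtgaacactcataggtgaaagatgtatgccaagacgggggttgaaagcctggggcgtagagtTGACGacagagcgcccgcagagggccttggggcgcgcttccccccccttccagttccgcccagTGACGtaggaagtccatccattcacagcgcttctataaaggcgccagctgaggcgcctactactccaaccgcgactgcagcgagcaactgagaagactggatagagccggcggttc
Nr4a1: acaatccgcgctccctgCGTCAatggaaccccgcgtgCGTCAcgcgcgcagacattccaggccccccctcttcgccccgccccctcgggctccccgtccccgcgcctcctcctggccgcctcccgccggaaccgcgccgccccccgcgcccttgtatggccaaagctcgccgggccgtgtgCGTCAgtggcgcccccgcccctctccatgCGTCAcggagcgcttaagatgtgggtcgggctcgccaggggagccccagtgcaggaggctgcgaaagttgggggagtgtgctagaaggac
Npas4: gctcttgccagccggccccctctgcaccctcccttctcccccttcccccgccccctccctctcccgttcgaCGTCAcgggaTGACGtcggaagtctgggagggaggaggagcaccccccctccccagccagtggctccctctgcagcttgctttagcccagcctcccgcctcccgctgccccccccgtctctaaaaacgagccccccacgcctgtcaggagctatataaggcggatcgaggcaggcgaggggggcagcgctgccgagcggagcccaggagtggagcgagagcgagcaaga
Dusp1: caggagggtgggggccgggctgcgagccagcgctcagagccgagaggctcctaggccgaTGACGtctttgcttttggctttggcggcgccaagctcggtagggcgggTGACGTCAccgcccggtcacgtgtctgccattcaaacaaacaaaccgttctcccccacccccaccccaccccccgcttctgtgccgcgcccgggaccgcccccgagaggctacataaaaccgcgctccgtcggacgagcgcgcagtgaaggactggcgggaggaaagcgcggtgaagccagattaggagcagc

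Fos had 2 matches, at positions -129 and -66 from the start site, Nr4a1 had 4, Npas4 had 2 and Dusp1 had 3, of which 2 overlap in the palindrome. Fosb (chr7:19309996-19310295, minus strand), Junb (chr8:84978699-84978998, minus strand) and Atf3 (chr1:191183284-191183583, minus strand) had 1 each, at positions -60, -106 and -7. These matches with 5 bases on each side are as follows.
Fosb: gcgggTGACGcaagc
Junb: gacagTGACGcgagc
Atf3: cattaCGTCAgcctg

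On either strand, TGACG was in 20.9% of 32544 RefSeq windows of this length with distinct sequences, and TGACGTCA in 1.8%. Windows of the members are rich in G and C, from 58.7% to 72.3%, and among the 10776 windows with at least the lowest of these shares 31.5% held TGACG. The CArG box, the element of serum response factor, was in 0 of the 7 windows and in 1.64% of all windows. Egr1 and bases more than 250 before the start were not searched, so this count says nothing about elements there. A match is a stretch of letters in this window, not a bound site.

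Before the values, 2 features of the libraries matter. Whole reads recovered from the table numbered 31655524 to 50748777 per library. Deletion replicate 3 went against its label, with 15300.2 scaled reads (reads divided by the library's size factor) of Xist and 5.69 of the Y-linked Ddx3y, against 4.86 to 86.9 and 2716 to 3087 in the other libraries. Gm10800, a predicted gene, held 3208844 scaled reads in control replicate 3, 902935 in deletion replicate 4, 559818 in control replicate 4 and 281013 in control replicate 2, and 1094 to 18316 in the other libraries. Markers of mature olfactory neurons were present in every library, with Omp at 3641 to 4776 CPM (a share of the recovered reads of the library).

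All 10 genes were detected in all 8 libraries, and all 10 had enough reads to test. Levels between genes were compared as scaled reads per kilobase of annotated exon, in control libraries. Ier2 was the highest at 916 ± 171 (SD, n = 4) scaled reads per kilobase, followed by Dusp1 at 539 ± 130 and Junb at 308 ± 61.8. Nr4a1 was at 168 ± 32.4, Fos at 153 ± 115, Arc at 95.3 ± 26.6 and Atf3 at 71.1 ± 14.3. Egr1 was at 34.6 ± 14.97, Fosb at 7.17 ± 4.06 and Npas4 at 4.15 ± 0.899. Of these neighbours, Nr4a1 and Fos, Fos and Arc, Arc and Atf3, and Fosb and Npas4 overlapped between control libraries, so their order is not fixed; the order from Ier2 to Dusp1 to Junb to Nr4a1, and from Atf3 to Egr1 to Fosb, was seen in all 8 libraries.

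The question of the comparison was whether loss of the enhancers came with a different level of these genes. None of the 10 passed the test (limma, adjusted p from 0.869 to 0.997 over 21974 genes), against 0.0728% of all tested genes (0.0137% higher and 0.0592% lower in the deletion). Likewise, edgeR and DESeq2 each called 0 members, against 0.0728% and 0.105% of genes. At an unadjusted p under 0.05 there was 1 member by limma, Npas4 (3.5% of all tested genes), 1 by edgeR (4.21%) and 2 by DESeq2, Nr4a1 and Npas4 (4.54%). Control and deletion libraries did not overlap for 1 member, Npas4, against 2.2% of all tested genes. On the log2(scaled reads + 1) scale 9 of 10 members had a higher mean in the deletion, against 54.4% of all tested genes. Their median log2 fold change, deletion minus control, was 0.27, beside 0.018 over all tested genes. For each library, the median over the members of log2 values minus each gene's mean was also taken. This library median had a within-group SD of 0.29, and was -0.32 in both control replicate 4 and deletion replicate 4. The median log2 fold change was 0.13 without deletion replicate 1, 0.19 without deletion replicate 3, and 0.46 without both control replicate 3 and deletion replicate 4. Over those and all other settings tried, 7 to 9 members lay above 0.

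**Figure D1:**
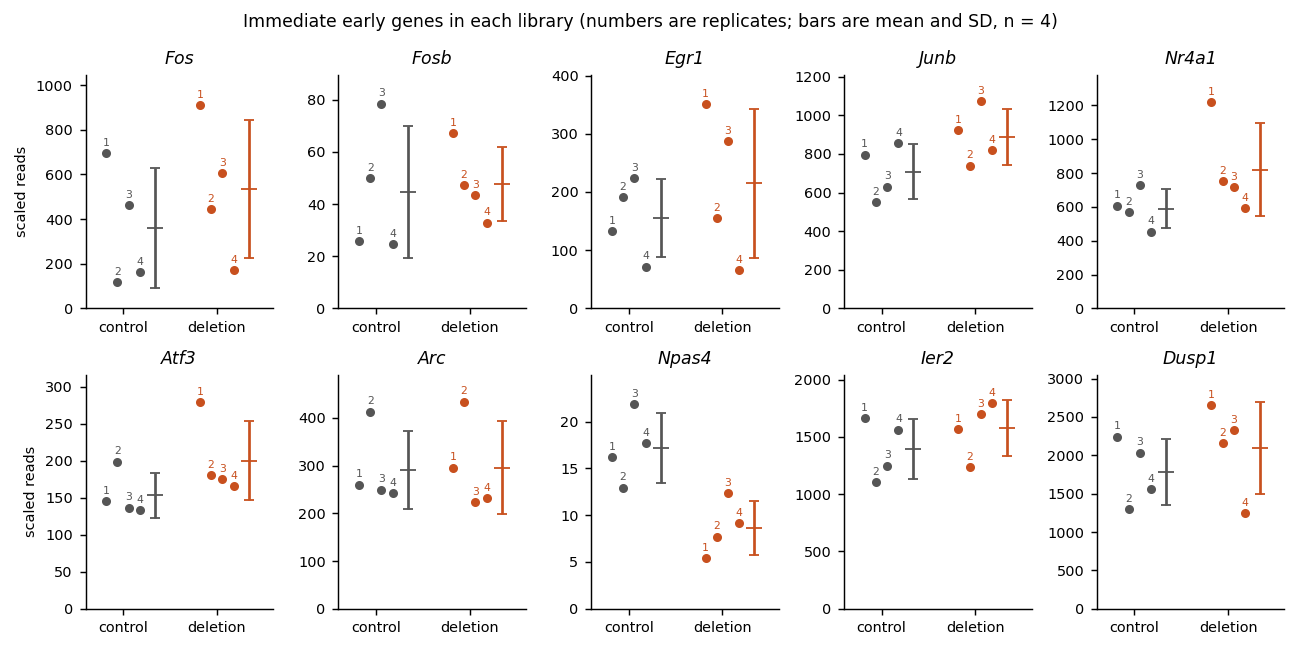
Scaled reads of each immediate early gene in the 4 control and 4 deletion libraries, on axes that start at 0; points are libraries numbered by replicate, and bars give mean and SD. Npas4 is the member whose groups do not overlap, and Fos ranges from 118 to 911.

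**Figure D2:**
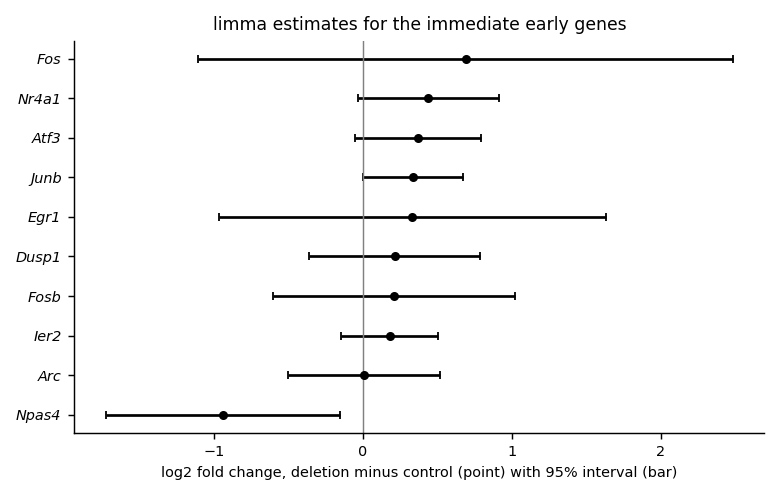
Log2 fold change of each immediate early gene, deletion minus control, from limma, with its 95% interval. The interval of Npas4 lies below 0 before adjustment over all genes, and those of the other 9 include 0.

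Among the AP-1 subunits, Fos (ENSMUSG00000021250.13, chromosome 12, 85473890 to 85477273, plus strand) was at 694, 118, 464 and 164 scaled reads in controls 1 to 4, and at 911, 446, 608 and 173 in the deletion libraries, numbered likewise. Control replicates 2 and 4 and deletion replicate 4 were the low libraries, and the groups overlapped over most of their range. The log2 fold change was 0.69 ± 0.75 (SE; limma adjusted p = 0.876), with a 95% interval from -1.11 to 2.48. With single libraries left out it ran from 0.275 without control replicate 2 to 1.15 without deletion replicate 4. Fosb (ENSMUSG00000003545.3, chromosome 7, 19302696 to 19310051, minus strand) was at 25.9, 49.9, 78.6 and 24.6 in controls and at 67.1, 47.3, 43.6 and 32.9 in the deletion. Control replicate 3 held its highest value and control replicate 4 its lowest, and the deletion libraries lay between them. Its log2 fold change was 0.21 ± 0.37 (SE). The sign turned, to -0.016, when control 4 was left out. Leaving out control 1, 2 or 3 gave Fosb 0.0081, 0.31 or 0.53, and leaving out deletion 1 or 4 gave 0.033 or 0.37.

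Junb (ENSMUSG00000052837.6, chromosome 8, 84974484 to 84978718, minus strand) varied less. It was at 796, 550, 631 and 857 scaled reads in controls and at 923, 740, 1075 and 820.1 in the deletion. All deletion libraries lay above the control median and 2 of them above the highest control, and the log2 fold change was 0.34 ± 0.15 (SE; limma adjusted p = 0.869), and 0.22 without control replicate 2. Junb overlaps Prdx2, an antioxidant enzyme gene on the other strand, over 351 bases, and Prdx2 held 6234 to 9410 scaled reads. The kit keeps strand, but the counter's strand setting is not given in the sources used here. Atf3 (ENSMUSG00000026628.13, chromosome 1, 191170296 to 191218039, minus strand) was at 145, 199, 137 and 133 in controls and at 279, 181, 175 and 165 in the deletion. Deletion replicate 1 stood above every other library, control replicate 2 came next, and the log2 fold change was 0.37 ± 0.19 (SE; adjusted p = 0.869). It was 0.20 without deletion replicate 1.

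Egr1 (ENSMUSG00000038418.7) was at 133, 191, 224 and 71.8 scaled reads in controls and at 351, 155, 287 and 65.8 in the deletion. The lowest library of each group was replicate 4, deletion replicates 1 and 3 were the highest of all, and the groups overlapped. The log2 fold change was 0.33 ± 0.57 (SE), with a 95% interval from -0.97 to 1.63. Single libraries set its size. Leaving out control 4 gave Egr1 a value of 0.0059, leaving out control 3 gave 0.55, and leaving out deletion 1, 3 or 4 gave 0.010, 0.11 or 0.81. Nr4a1 (ENSMUSG00000023034.7, chromosome 15, 101254269 to 101274795, plus strand) was at 608, 568, 730.3 and 454 in controls and at 1218, 753, 716 and 591 in the deletion. Deletion replicates 1 and 2 lay above all controls and the other deletion libraries among them, and the log2 fold change was 0.44 ± 0.21 (SE; limma adjusted p = 0.869). It was 0.23 without deletion replicate 1. In the authors' deposited table Nr4a1 had an unadjusted p of 0.0246 and Junb of 0.0456, each with an adjusted p of 0.923.

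Npas4 (ENSMUSG00000045903.8, chromosome 19, 4984355 to 4990316, minus strand) was at 16.2, 12.9, 21.9 and 17.7 scaled reads in controls and at 5.42, 7.71, 12.3 and 9.13 in the deletion. Every deletion library lay below every control, as for 1.22% of all tested genes in that direction, but deletion replicate 3 and control replicate 2 were close. The log2 fold change was -0.94 ± 0.36 (SE; limma adjusted p = 0.869), with a 95% interval from -1.73 to -0.15. These values rest on few reads, 69 over the 4 controls and 35 over the 4 deletion libraries, a ratio of 0.513 relative to library depth (95% exact binomial interval 0.331 to 0.781, counting error only). Over the other settings the log2 fold change ran from -1.11 to -0.71, with no adjusted p under 0.446. In the authors' deposited table its unadjusted p was 0.0696.

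Markers of olfactory bulb neurons, whose tissue borders the mucosa, are given beside it, and their part in its value was not tested. Of the 5 tested bulb markers of the list 4 had a lower mean in the deletion, with a median log2 fold change of -0.63, and none was called by limma (2 lower at an unadjusted p under 0.05, as for 1.92% of all tested genes). Gad1, which makes the transmitter GABA, was at 21.9, 92.4, 39.9 and 12.8 scaled reads in controls and at 3.25, 3.30, 8.53 and 17.4 in the deletion. Tbr1, a factor of projection neurons, was at 38.1 to 81.1 in controls and 24.2 to 39.3 in the deletion, and Slc17a7, a glutamate transporter, at 30.5 to 69.3 and 26.0 to 40.2. Slc32a1, the vesicle transporter for GABA, was listed at 0 in deletion replicates 1 to 3. The summed level of all 6 listed bulb markers was 13.3 to 21.04 CPM in controls and 14.7 to 19.0 in the deletion, most of it from Eomes, which was at a log2 fold change of 0.27. Among controls, control replicate 2 held the lowest Npas4 and the highest Gad1 and Slc17a7. Npas4 had only 14 to 20 reads per control, and counting error alone gives it an SD of 0.40 log2 units. The order of controls for Npas4 is therefore not fixed. In bulk tissue, fewer cells of a type and less RNA per cell cannot be told apart.

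Arc (ENSMUSG00000022602.14, chromosome 15, 74669083 to 74672570, minus strand) was level between the groups within its spread. It was at 260.0, 413, 249.9 and 243 scaled reads in controls and at 296, 434, 223 and 231 in the deletion. The replicate numbered 2 was the highest library of each group, and the others lay between 223 and 296. The log2 fold change was 0.0046 ± 0.23 (SE; limma adjusted p = 0.997), its 95% interval ran from -0.51 to 0.52, and its sign turned under both other scalings, library totals and TMM factors.

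Ier2 (ENSMUSG00000053560.4, chromosome 8, 84661331 to 84662852, minus strand) was at 1661, 1106, 1248 and 1563 scaled reads in controls and at 1567, 1235, 1699 and 1797 in the deletion. It had the smallest spread of the members, with overlapping groups and a log2 fold change of 0.18 ± 0.15 (SE). Leaving out control 1 or 2 gave Ier2 0.27 or 0.075, and leaving out deletion 2 or 4 gave 0.29 or 0.11. Dusp1 (ENSMUSG00000024190.6, chromosome 17, 26505590 to 26562128, minus strand) was at 2243, 1299, 2035 and 1562 in controls and at 2656, 2156, 2327 and 1251 in the deletion. Its 3 lowest libraries, deletion replicate 4 and control replicates 2 and 4, were also the 3 lowest for Fos. The log2 fold change was 0.21 ± 0.25 (SE), and with single libraries left out it ran from 0.070 without control replicate 2 and 0.080 without deletion replicate 1 to 0.44 without deletion replicate 4 (limma adjusted p = 0.844). Its annotated span overlaps Ergic1 on the other strand over 640 bases, and Ergic1 held 3518 to 4244 scaled reads.

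The spread between replicates was measured as the SD within groups of log2(scaled reads + 1), and set beside the 1000 tested genes nearest in mean level. The median over the members was 0.39, beside 0.20 over all tested genes, and 9 of 10 members lay above the middle of the genes of like level. Fos had an SD of 1.12, above 99.6% of the genes of like level, whose median was 0.19. Egr1 followed with 0.92, above 98.6%, then Dusp1 with 0.42 (98.4%), Nr4a1 with 0.37 (95.2%) and Arc with 0.40 (93.2%). Counting error alone would give 0.068 for Fos, 0.11 for Egr1 and 0.033 for Dusp1.

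Ier2, Fosb and Junb had SDs of 0.26, 0.63 and 0.27, above 89.7%, 86.6% and 86.2% of genes of like level, and Atf3 one of 0.31, above 72.5%. Npas4 was the exception, with an SD of 0.37 above only 11.3% of genes of like level and close to the 0.40 that counting error alone gives at its depth. The highest library over the lowest was 7.70-fold for Fos, 5.34-fold for Egr1 and 4.04-fold for Npas4, and ran from 1.62-fold (Ier2) to 3.20-fold (Fosb) for the rest. Within controls alone it was 5.87-fold for Fos, and within the deletion 5.28-fold.

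**Figure D3:**
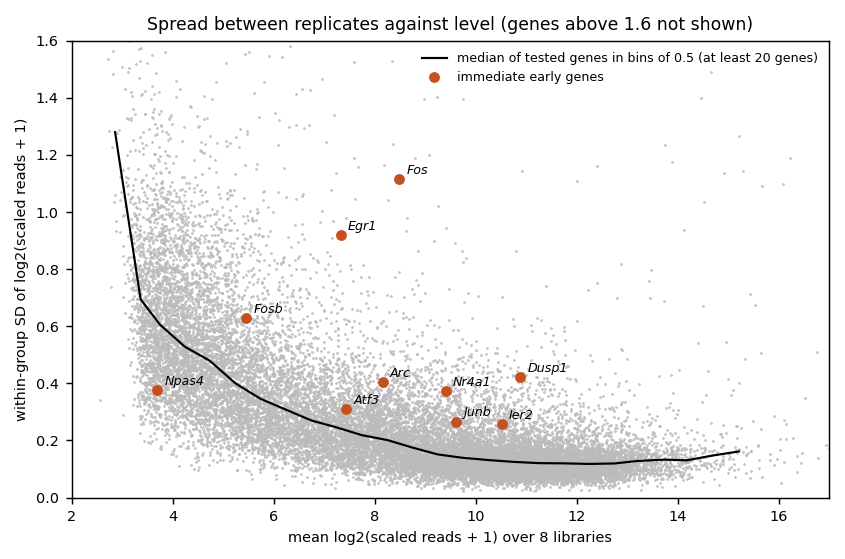
Within-group SD of log2(scaled reads + 1) against the mean level for all tested genes (grey, with the median line) and the 10 immediate early genes (orange). Fos, at 1.12, and Egr1, at 0.92, lie far above genes of like level, and Npas4 lies below its neighbours.

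The libraries were not ordered alike for all members. Deletion replicate 1 was the highest library for 5 members, Fos, Egr1, Nr4a1, Atf3 and Dusp1, and the lowest for Npas4. Control replicate 2 was the lowest for Fos, Junb and Ier2, and control replicate 4 for Fosb, Nr4a1 and Atf3. The summed level of the 10 genes was 160, 121, 143 and 128 CPM in controls, in the order of their numbers, and 204, 154, 171 and 129 CPM in the deletion, so that the groups overlapped. Control replicate 2 combined the lowest Fos with the highest Arc and Atf3 of the controls, and its ratio of Egr1 to Fos scaled reads was 1.62, against 0.191 to 0.483 in the other 7 libraries. Fosb to Fos ran from 0.0373 in control replicate 1 to 0.422 in control replicate 2.

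**Figure D4:**
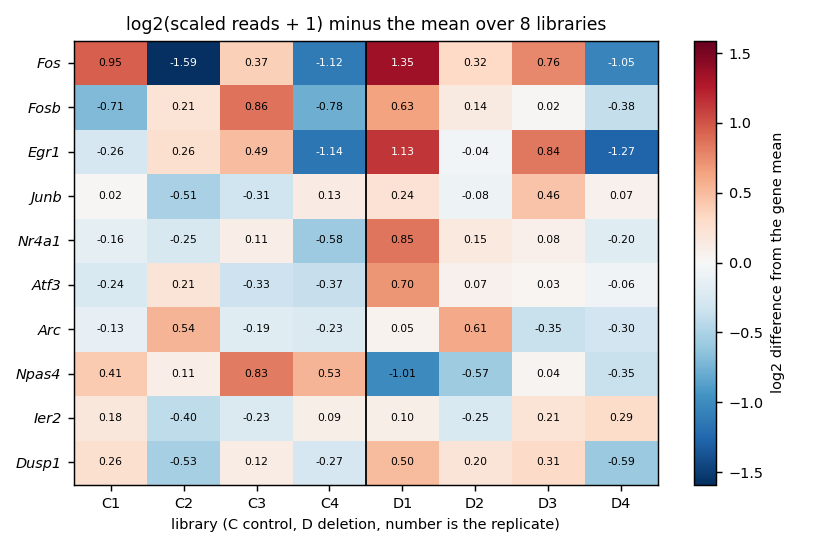
Each immediate early gene (rows) in each library (columns), as log2(scaled reads + 1) minus the gene's mean over the 8 libraries; C is control and D deletion. Deletion replicate 1 is high for Fos, Egr1, Nr4a1, Atf3 and Dusp1 and low for Npas4, and control replicate 2 is low for Fos and high for Arc.

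Other genes were ranked by how close their centred log2 values over the 8 libraries came to the mean profile of the members, among 14688 genes with at least 100 scaled reads on average. The mean profile ranged over 0.83 log2 units. The closest was the odorant receptor Olfr557, with a root mean square difference of 0.0802 log2 units, followed by Ccdc69 at 0.0922, Gm20939 at 0.133, Btc, which encodes the growth factor betacellulin, at 0.135, and Galnt13, a glycosyltransferase, at 0.151. The closest to Fos alone, named after the values were seen, was Ptgs2, the inducible prostaglandin synthase, at 0.448. Ptgs2 was at 152, 76.7, 178 and 78.7 scaled reads in controls and at 364, 230.1, 336 and 88.6 in the deletion. Its 3 lowest libraries were those of Fos, which follows in part from its choice by likeness to Fos.

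Other immediate early genes were taken from lists of 21 transcription factors and 23 effectors. None was called by limma, edgeR or DESeq2. On the log2(scaled reads + 1) scale 17 of 18 tested factors, all but Myc, had a higher mean in the deletion. So did 22 of 23 effectors, all but Gadd45a, against 54.4% of all tested genes. Without logs, mean scaled reads were also lower in the deletion for Egr3 and Ier5. By edgeR and by DESeq2, 15 factors and 21 effectors lay above 0. All these genes were measured in the same 8 libraries, so they are not independent, and single libraries can move many of them together. The median log2 fold change was 0.16 over the factors and 0.21 over the effectors, and 0.099 and 0.14 without control replicate 2. Over the alternative settings, 36 to 40 genes of both lists lay above 0, of up to 43 tested. At an unadjusted limma p under 0.05, 4 factors and 2 effectors were higher and 0 lower, against 1.58% and 1.92% of all tested genes. That count of 6 was 11 without control replicate 1 or without deletion replicate 4, 10 without control replicate 4 and 3 without control replicate 2. Jund and Egr2, each on 2 identifiers in the table, were listed at or near 0 and give no value.

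The 3 factors with the smallest p were Nr4a2, Klf6 and Mafk. Nr4a2, a close relative of Nr4a1, was at 190.3, 169, 176 and 135 scaled reads in controls and at 290.3, 218, 267 and 196 in the deletion. Its groups did not overlap, and its log2 fold change was 0.53 ± 0.16 (SE; limma adjusted p = 0.869). The third NR4A receptor, Nr4a3, named after its values were seen, was at 89.5 to 240 in controls and 204 to 627 in the deletion, with overlapping groups (log2 fold change 1.09 ± 0.41). The zinc finger factor Klf6 was at a log2 fold change of 0.20 ± 0.07 and the small Maf protein Mafk at 0.23 ± 0.09. Groups did not overlap with the deletion higher for Nr4a2, Klf6 and Mafk among the factors, as for 0.983% of all tested genes. Among effectors the smallest p belonged to Rgs2, a regulator of G protein signalling, at 0.39 ± 0.15, to the kinase Plk2 at 0.25 ± 0.11 and to Errfi1, an inhibitor of EGF receptor signalling, at 0.20 ± 0.09 (limma adjusted p = 0.869 each).

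Genes up and down the pathway were described in the same way. Of 11 feedback genes of the MAPK pathway, 0 were called and 9 lay above 0, with a median log2 fold change of 0.17, which was 0.11 without control replicate 3. Spry1, an inhibitor of receptor tyrosine kinase signalling, was at 1969, 1859.6, 1713 and 1987 scaled reads in controls and at 2423, 2225, 2626 and 2077 in the deletion, without overlap (0.31 ± 0.09; limma adjusted p = 0.869). Dusp6 and Dusp5, phosphatases of MAP kinases, were at 0.22 ± 0.09 and 0.28 ± 0.13. Of 25 upstream factors and kinases 14 lay above 0 with a median of 0.0093, or 10 with a median of -0.020 when scaled by library totals, and the 3 with the smallest p were Camk2a at -0.32 ± 0.15, Srf at 0.18 ± 0.11 and Elk1 at -0.17 ± 0.13. Of 12 tested late targets of neuronal activity 5 lay above 0 with a median of -0.043, with Rasd1 at 0.21 ± 0.14, Vgf at -0.58 ± 0.42 and Gem at 0.36 ± 0.29. Genes that depend on activity in olfactory neurons lay above 0 in 3 of 8, with a median of -0.16, but in 5 of 8 with a median of 0.032 without deletion replicate 3 and in 4 of 8 with a median of 0.0093 without control replicate 1 (Sema7a at -0.31 ± 0.19, Kirrel3 at 0.14 ± 0.12, Lrrc3b at -0.30 ± 0.38), and none of these genes was called. Limma found 0 genes of the upstream, late and olfactory lists at an unadjusted p under 0.05, edgeR found 1 upstream gene, and DESeq2 1 upstream gene and 1 olfactory gene, each lower in the deletion.

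Stress lists and cell markers were set beside the members, and their part in the members' values was not tested. All 14 heat shock genes lay above 0, with a median of 0.13; the 3 with the smallest p were Hspa5, a chaperone of the endoplasmic reticulum, at 0.28 ± 0.09, Dnajb4 at 0.13 ± 0.06 and Hspd1 at 0.14 ± 0.08. Over the alternative settings 10 to 14 did so, the fewest without control replicate 2. Glucocorticoid-responsive genes lay above 0 in 8 of 10 with a median of 0.16, with the kinase Sgk1 at 0.41 ± 0.16, Errfi1 as given above and the metallothionein Mt1 at 0.28 ± 0.15, and integrated stress genes in 7 of 10 with a median of 0.046 (Atf4 at 0.15 ± 0.09, Asns at 0.16 ± 0.11, Atf5 at 0.12 ± 0.09). None was called. Over the settings 5 to 10 glucocorticoid genes lay above 0, with medians from 0.086 (control 3 left out) to 0.28 (control 4 left out), and 0.11 with deletion 3 left out. For integrated stress genes it was 3 to 8, with medians from -0.010 without control replicate 3 and deletion replicate 4, and 0.00028 without control replicate 3 alone, to 0.11 without control replicate 4. Respiratory epithelium markers were at 6449 to 9707 CPM in controls and 9610 to 10433 in the deletion, with 7 of 8 above 0 and a median of 0.24. Control replicate 2, low for Fos, Junb, Ier2 and Dusp1, held the lowest sum of these markers. Control replicate 4, the lowest library for Fosb, Nr4a1 and Atf3, held the highest sum of the controls. Erythroid markers, at 23.8 to 71.6 CPM in controls and 28.3 to 41.6 in the deletion, lay below 0 in 5 of 5, with a median of -0.31, which was -0.65 without control replicate 1 and -0.16 without control replicate 2. Mature neuron markers were at 10697 to 12416 and 11725 to 12803 CPM. Sustentacular markers were at 3090 to 3948 and 3908 to 4271 CPM, with 4 above 0 and a median of 0.20. Glial markers lay above 0 in 5 of 5 (median 0.093) and endothelial markers in 5 of 6 (0.16). Without deletion replicate 3 these were 1 of 5 and 3 of 6. Basal, immature neuron and leukocyte markers had medians of 0.055, 0.069 and 0.10, and muscle and bone markers -0.10.

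**Figure D5:**
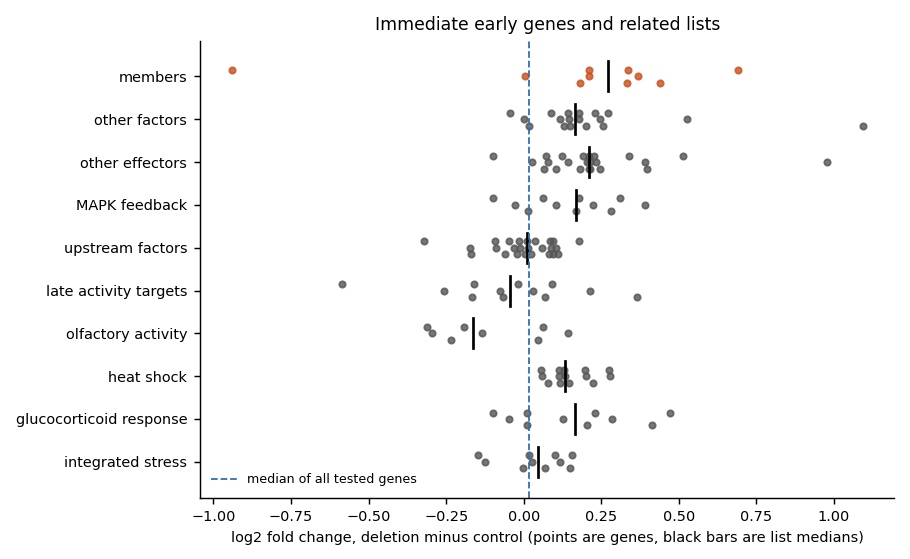
Log2 fold change, deletion minus control, of the tested genes in each list (points), with the list median (black bar) and the median of all tested genes, 0.018 (dashed line). Medians of the immediate early lists lie between 0.16 and 0.27. Those of MAPK feedback, glucocorticoid and heat shock genes lie at 0.17, 0.16 and 0.13. Integrated stress genes are at 0.046, upstream factors and late targets near 0, and olfactory activity genes at -0.16.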

How the data were processed

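RNA of olfactory mucosa was sequenced from 4 control and 4 deletion libraries after ribosomal RNA removal with a stranded kit, per the labels' protocols. Reads were aligned with STAR 2.6.0 to GRCm38.p6 and analysed with DESeq2, per the submitters' processing notes; no source used here names the counter, its strand setting or the annotation. The deposited signal values are read counts per gene divided by a size factor per library, here called scaled reads. Dividing by the value of 1 read gave whole numbers for 100% of values within 0.001, so whole reads were recovered. The authors' deposited table also gives log2 fold changes, p-values and adjusted p-values; its test statistic, a score made by the authors, and its mean signal were not used.

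The 10 members were matched by symbol, and 54161 of 54982 rows were matched to GENCODE M21 for position and exon length. The members and lists were chosen with earlier results of these data known. The main test was limma 3.58.1 (R 4.3.3) on log2(scaled reads + 1) of 21974 genes kept by filterByExpr with a minimum count of 10, with trend and robust moderation and Benjamini-Hochberg adjustment; fold changes on this scale understate those of low genes. Alternatives were edgeR 4.0.16 and DESeq2 1.42.0 on recovered reads, other filters, pseudocounts of 0.5 and 5, other scalings, a block by replicate number, and each library left out. Named genes were all members, up to 3 genes per other list with the smallest p, and the 5 genes closest to the members' mean profile; others were chosen after their values were seen and are described as such or, for cell markers and the genes used to describe libraries, are of that kind. Depth was 31655524 to 50748777 reads per library, and intervals on reads cover counting error only.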

Additional observations from a re-analysis of the deposited data

Results flagged for a closer look

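In 20 groups of 4 libraries (10 genes in each of 2 conditions), the gap between an extreme library and its neighbour was compared with the range of the group, and 2 groups passed the critical value of 0.829; chance flags about 1 in 20 groups. Atf3 in deletion replicate 1 was at 279 scaled reads, against 181 in the next library, a gap of 0.866 of the range. Arc in control replicate 2 was at 413 scaled reads, against 260.0 in the next, a gap of 0.899 of the range.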

How the results depend on the processing

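Over 19 alternative settings 0 members were called, and the members' median log2 fold change stayed above 0, from 0.13 to 0.46. Genes called over all tested genes numbered 16, and 10 with a mean of at least 50 scaled reads, a filter under which Fosb and Npas4 were not tested. With single libraries left out they numbered 13 to 31, the most without deletion replicate 4, and 27 without both control replicate 3 and deletion replicate 4, an alternative chosen after seeing the data because these libraries held the most Gm10800 reads. The cause was not tested. Arc turned sign, to -0.0068 with edgeR, -0.0085 with DESeq2, -0.024 with library totals and -0.014 with TMM factors, and lay between -0.197 and 0.184 with single libraries left out. Fosb was at -0.016 without control replicate 4 and at 0.689 without control replicate 3 and deletion replicate 4. The other 8 members kept their direction in every setting that tested them, Egr1 at values down to 0.0059. With a replicate block, 14 genes and 0 members were called (limma adjusted p = 0.88 for Nr4a1, Npas4 and Junb). Unadjusted limma p for Nr4a1, Npas4 and Junb was 0.0189, 0.0308 and 0.0311 with the block, and 0.0663, 0.023 and 0.0514 without it. For Fos it was 0.0631 with the block and 0.391 without. Over all tested genes the numbers did not clearly pair the libraries. Deviations of libraries with the same number correlated from -0.168 to 0.325, and 3 of 8 libraries correlated best with their own number. Whether the members pair by number was not tested. The 4 libraries per group and, for Npas4, the few reads limit what could be detected.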
